A study of Rattus norvegicus with 6 samples.

Results

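The 9 genes described here encode the inducible proteasome and the machinery that loads peptides onto class I major histocompatibility molecules: Psmb8, Psmb9, Psmb10, Psme1, Psme2, Tap1, Tap2, Tapbp and B2m. They were listed by function, and their probes were found by matching each probe's accession to RefSeq. All 9 were found among the 15645 genes with a single symbol on the array, through 17 of 61537 non-control probes, and all 17 probes were well above background on all 6 arrays. Renal cortex RNA came from male Sprague-Dawley rats, bought at 5 weeks of age and kept on a basal diet. The treated group (n = 3) received sulfone bis(p-chlorophenyl) at 250 mg/kg/day for 4 weeks. The vehicle group (n = 3) received corn oil for the same 4 weeks. Each animal's RNA was labelled with Cy3 and put on its own Agilent array, in 1 colour. Levels are log2 of the processed signal minus the 75th percentile of that array, so that a probe at 0 is as bright as the 75th percentile. Levels of different probes are not compared, since each probe binds with its own efficiency.

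Proteasomes degrade cytosolic proteins in a barrel-shaped core whose catalytic subunits can be exchanged. Under interferon, Psmb8, Psmb9 and Psmb10 take the places of Psmb5, Psmb6 and Psmb7, and the assembled immunoproteasome cuts more peptides that suit class I molecules. Psme1 and Psme2 form the PA28 cap that opens the core, Tap1 and Tap2 form the pump that moves peptides into the endoplasmic reticulum, Tapbp (tapasin) holds empty class I molecules at that pump, and B2m is the class I light chain. In rats, allelic forms of Tap2 are known to pass different sets of peptides. Most of these genes are textbook targets of interferon gamma, which acts in part through IRF1. Sprague-Dawley is an outbred stock, so its animals can differ in their RT1 haplotype, RT1 being the rat histocompatibility complex.

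In treated cortex Psmb8, Psmb9, Psmb10 and Tap1 were at 64.3% to 68.0% of their vehicle level, with no overlap between the groups, while Psme1, Psme2, Tapbp and B2m were at 93.8% to 108% of it. Tap2 was lower on average, with overlapping groups. None of the 9 passed limma's test after Benjamini-Hochberg adjustment over all 40643 tested probes (adjusted p of 0.086 to 0.656), as 0.00825% of tested genes did in the lower direction. With 1 probe per gene, 4 of the 9 had an unadjusted p of under 0.05 and were lower in treated, against 11.3% of the 12118 tested genes. Of the 9, 7 were below their vehicle level, against 52.5% of tested genes. Groups did not overlap, with treated lower, for the same 4 genes, against 16.8% of tested genes. The median log2 fold change was -0.44 over the 9 genes, which is the value of Tap2, and -0.01 over all tested genes. With slide as a fixed block the median of the 9 was -0.26. In bulk tissue, fewer cells of a type and less RNA per cell cannot be told apart.

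The promoters are shown because most of them carry the same short element. RefSeq windows of GRCr8 (250 bases before to 50 after the annotated start) matched all 9 genes. The letters GAAA, any 2 bases and GAAA, the core of an interferon regulatory factor element, were searched on both strands and found in 7 of the 9 windows, against 3.92% of 33469 rat promoter windows. Psmb9 and Psme1 held no match in theirs. Psmb10 and Tapbp each held 2 matches, which overlap each other in Tapbp. Below, capitals mark these matches and the rest is in lower case. For the genes with the largest differences, Psmb8 (chr20:4657012-4657281, minus strand), Psmb9 (chr20:4668750-4669019, plus strand), Psmb10 (chr19:50743273-50743542, minus strand) and Tap1 (chr20:4668524-4668793, minus strand), the window is shown to 20 bases after the start. For Tap2 (chr20:4652308-4652357, minus strand), Tapbp (chr20:4967868-4967923, minus strand), Psme2 (chr15:33052775-33052824, minus strand) and B2m (chr3:129549160-129549209, plus strand), up to 20 bases on each side of the element are shown.
Psmb8: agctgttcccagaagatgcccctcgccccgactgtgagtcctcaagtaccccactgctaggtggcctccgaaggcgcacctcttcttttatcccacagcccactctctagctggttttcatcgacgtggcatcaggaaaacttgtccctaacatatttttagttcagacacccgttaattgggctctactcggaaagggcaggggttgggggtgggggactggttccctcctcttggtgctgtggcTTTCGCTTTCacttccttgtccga
Psmb9: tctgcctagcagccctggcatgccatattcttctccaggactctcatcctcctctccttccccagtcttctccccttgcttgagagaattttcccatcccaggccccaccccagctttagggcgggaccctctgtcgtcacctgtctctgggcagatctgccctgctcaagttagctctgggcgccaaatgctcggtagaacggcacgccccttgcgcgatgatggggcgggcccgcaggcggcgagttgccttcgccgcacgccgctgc
Psmb10: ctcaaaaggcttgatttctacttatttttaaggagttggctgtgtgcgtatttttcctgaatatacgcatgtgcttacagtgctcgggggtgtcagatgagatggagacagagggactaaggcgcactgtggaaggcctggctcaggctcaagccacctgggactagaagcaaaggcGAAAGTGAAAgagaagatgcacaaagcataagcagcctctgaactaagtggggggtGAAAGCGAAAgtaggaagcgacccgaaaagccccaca
Tap1: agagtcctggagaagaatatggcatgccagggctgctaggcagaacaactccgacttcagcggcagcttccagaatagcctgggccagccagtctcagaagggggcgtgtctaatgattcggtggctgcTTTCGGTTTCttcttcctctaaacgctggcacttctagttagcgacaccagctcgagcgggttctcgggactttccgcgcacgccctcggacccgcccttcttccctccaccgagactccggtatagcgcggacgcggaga
Tap2: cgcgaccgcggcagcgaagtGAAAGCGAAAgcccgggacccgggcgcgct
Tapbp: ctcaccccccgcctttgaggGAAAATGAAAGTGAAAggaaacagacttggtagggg
Psme2: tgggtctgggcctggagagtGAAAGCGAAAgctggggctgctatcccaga
B2m: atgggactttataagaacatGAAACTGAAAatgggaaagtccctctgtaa

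The element lay at different distances from the start. Its first base was at position -4 in Psmb8, -73 and -17 in Psmb10, -41 in Tap2, -53 in Psme2, -121 in Tap1, -150 in B2m and -26 and -20 in Tapbp, counted with -1 as the last base before the start. A STAT site (TTCNNNGAA, in 8.87% of all windows) was found in Psmb8 alone of the 9. The NF-kB-like letters GGG, any 5 bases and CC were found in 6 of the 9 windows, against 47.3% of all windows, with some matches overlapping one another, and the GC box GGGCGG in 5, against 33.1%. Several NF-kB-like matches and GC boxes overlap in Psmb9, Tap1 and Tapbp. CCAAT was found in 3 (B2m, Psmb8 and Psmb9), against 37.5%. Tap2, Psmb8, Tap1 and Psmb9 are consecutive genes on chromosome 20 in the RefSeq table. Tap1 and Psmb9 are read in opposite directions from starts 457 bases apart, and their windows share 44 bases. The Tap1 element lies between those starts, outside the window of Psmb9. Presence of the element in these windows did not separate the genes by their difference: those of Psme2, Tapbp and B2m hold it and that of Psmb9 does not.

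**Figure D1:**
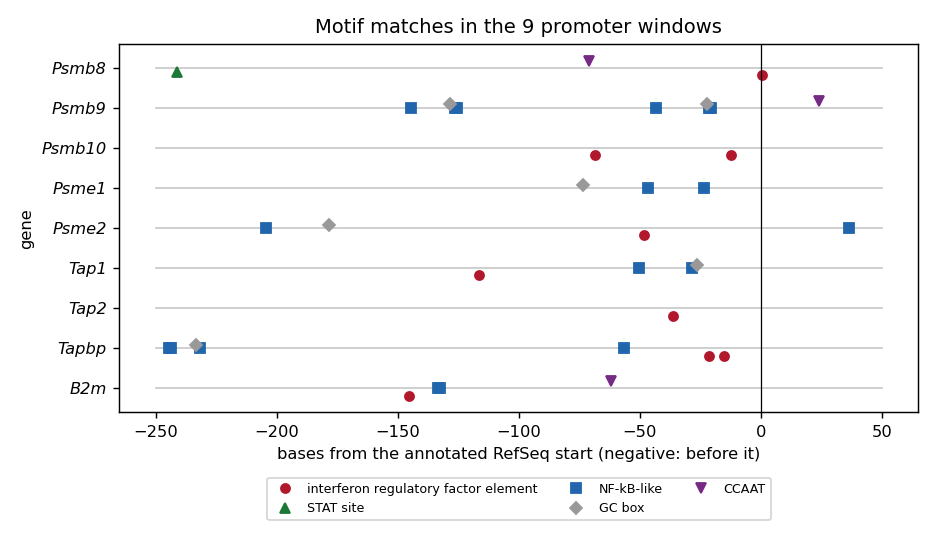
Position of motif matches in the promoter windows of the 9 genes, in bases from the annotated RefSeq start (x axis, negative before the start). Each line is a gene and each point the centre of a match, and the interferon regulatory factor element appears in every window except those of Psmb9 and Psme1.

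Among the catalytic subunits, Psmb8, which replaces Psmb5 and gives the chymotrypsin-like activity, had log2 levels of 0.32, 0.13 and 0.39 in treated 1, 2 and 3 and of 0.89, 0.77 and 0.97 in vehicle 1, 2 and 3. The highest treated array lay 0.38 below the lowest vehicle array. The log2 fold change was -0.60 (SE 0.10, limma adjusted p = 0.096), with group means of 0.28 ± 0.13 in treated and 0.88 ± 0.10 in vehicle (SD, n = 3 each).

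Psmb9, which replaces the caspase-like subunit Psmb6, had 0.97, 0.58 and 0.81 in treated 1, 2 and 3 and 1.28, 1.36 and 1.55 in vehicle 1, 2 and 3. Treated 1 was the highest treated array and still lay below every vehicle array. Its log2 fold change was -0.61 (SE 0.13, limma adjusted p = 0.116). Psmb10, which replaces the trypsin-like subunit Psmb7, had the tightest groups of the 3, with 2.27, 2.09 and 2.19 in treated 1, 2 and 3 and 2.77, 2.66 and 2.80 in vehicle 1, 2 and 3. The gap between the groups, 0.39, exceeded the range within either of them (0.18 in treated and 0.13 in vehicle). Its log2 fold change was -0.56 (SE 0.08, limma adjusted p = 0.086), which placed Psmb10 at rank 252 of the 40643 tested probes by p.

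**Figure D2:**
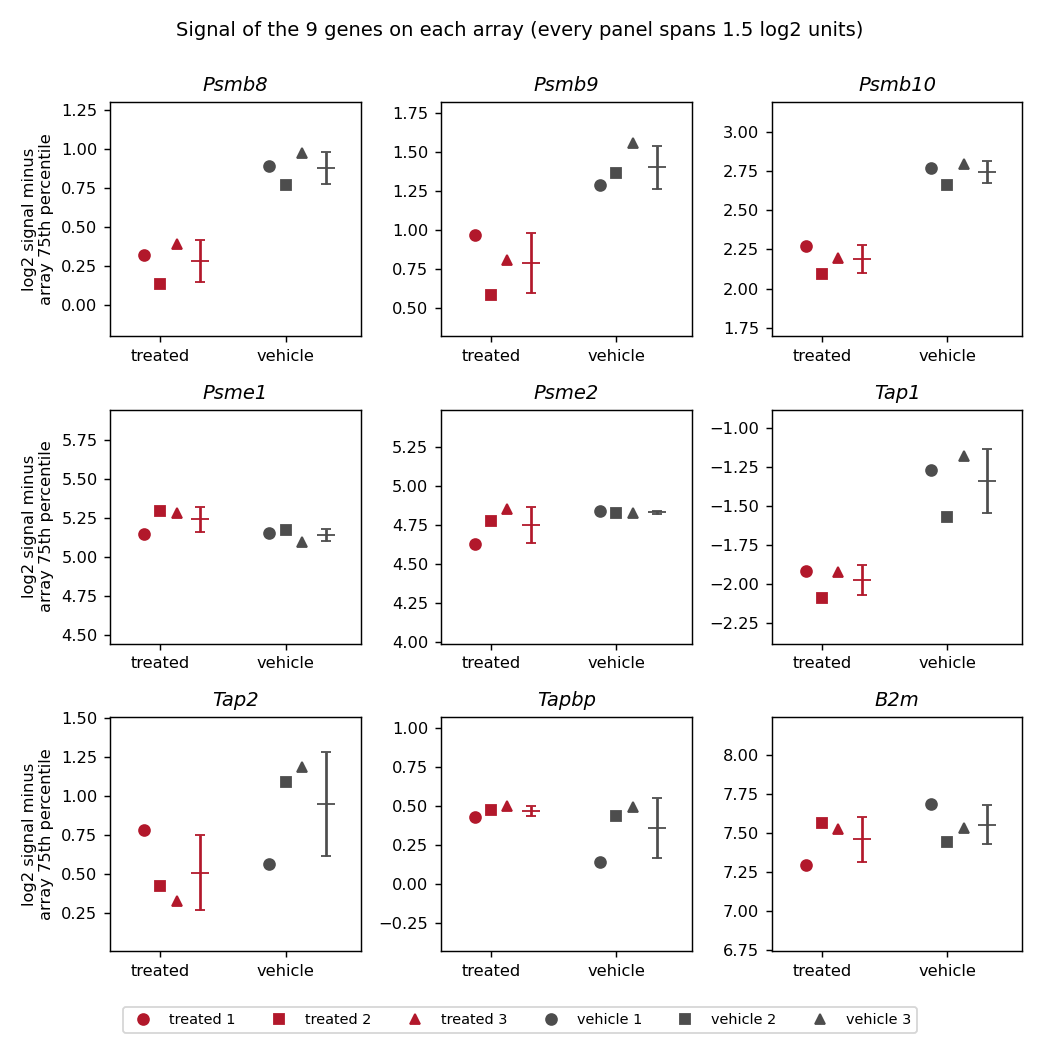
Level of each of the 9 genes on each array (y axis: log2 signal relative to the array's 75th percentile), treated at left in red and vehicle at right in grey, with the mean and SD of 3 arrays beside the points. The groups are apart for Psmb8, Psmb9, Psmb10 and Tap1 and overlap for the other 5 genes, and each panel spans 1.5 log2 units.

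The 2 chains of the peptide pump are given in turn, and whether they differ from each other was not tested. Tap1 had log2 levels of -1.92, -2.09 and -1.92 in treated 1, 2 and 3 and of -1.27, -1.57 and -1.18 in vehicle 1, 2 and 3, or -0.64 as a log2 fold change (SE 0.12, limma adjusted p = 0.109). Every treated array lay below every vehicle array. A second, dimmer Tap1 probe had -3.03, -3.18 and -3.24 in treated and -2.56, -2.50 and -2.40 in vehicle arrays. That probe had -0.66 as a log2 fold change (SE 0.09, limma adjusted p = 0.075), the lowest adjusted p of the 17 probes.

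Tap2 varied more between animals than between groups. Its brighter probe had 0.78, 0.42 and 0.33 in treated 1, 2 and 3 and 0.57, 1.09 and 1.19 in vehicle 1, 2 and 3. Vehicle 1 lay below treated 1, and the vehicle arrays spanned 0.62. The log2 fold change was -0.44 (SE 0.20, limma adjusted p = 0.283), with a 95% interval of -0.94 to 0.06. That interval includes the Tap1 value of -0.64. With 1 array left out, the Tap2 value ranged from -0.63 (without vehicle 1) to -0.32 (without vehicle 3). Tap1 was at -0.60 without vehicle 1 and at -0.56 without vehicle 3. The other Tap2 probe ordered the arrays in the same way, with -0.05, -0.49 and -0.56 in treated 1, 2 and 3 and -0.41, 0.22 and 0.35 in vehicle 1, 2 and 3 (log2 fold change -0.42, limma adjusted p = 0.355). On both probes treated 1, vehicle 2 and vehicle 3 were the highest arrays.

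The PA28 cap did not share the difference of the catalytic subunits. Psme1 had 5.15, 5.30 and 5.28 in treated and 5.16, 5.17 and 5.10 in vehicle arrays, which is 0.10 as a log2 fold change (SE 0.08, limma adjusted p = 0.472) with a 95% interval of -0.08 to 0.29. Psme2 had 4.62, 4.78 and 4.85 in treated and 4.84, 4.82 and 4.83 in vehicle arrays, which is -0.08 as a log2 fold change (SE 0.08, limma adjusted p = 0.613) with a 95% interval of -0.28 to 0.13. The second probes of these genes gave 0.04 for Psme1 and -0.10 for Psme2. On the second Psme2 probe the treated arrays (2.98, 3.03 and 3.07) lay just below the vehicle arrays (3.15, 3.14 and 3.09), with an adjusted p of 0.424 by limma.

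Tapbp, the chaperone at the pump, had 0.43, 0.47 and 0.50 in treated and 0.14, 0.44 and 0.50 in vehicle arrays. Vehicle 1 stood below the other 5 arrays, and the log2 fold change was 0.11 (SE 0.11, limma adjusted p = 0.596, 95% interval -0.16 to 0.38). Without vehicle 1 it was 0.0008. B2m, the class I light chain, had 7.30, 7.56 and 7.53 in treated and 7.69, 7.44 and 7.53 in vehicle arrays on its brightest probe. The log2 fold change was -0.09 (SE 0.11, limma adjusted p = 0.656, 95% interval -0.36 to 0.18). Over the 5 B2m probes the log2 fold changes lay between -0.20 and -0.03, and the groups were apart on 1 of them (5.83, 5.94 and 5.87 in treated and 6.21, 6.0 and 6.03 in vehicle arrays, limma adjusted p = 0.265). The 95% intervals of Psmb8, Psmb9, Psmb10 and Tap1 reached no higher than -0.30, whereas those of Psme1, Psme2, Tapbp and B2m included 0. Whether the 2 sets of genes differ from each other was not tested.

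Over all 17 probes, 14 had a log2 fold change below 0, against 55.2% of tested probes, and 5 were lower in treated at an unadjusted p of under 0.05, against 12.2% of tested probes. On 7 of the 17 probes the groups did not overlap, with treated lower, against 17.0% of tested probes. None of the 17 was called at an adjusted p of under 0.05 by limma, as 0.00492% of tested probes were called lower.

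The constitutive proteasome did not share the lower levels. Psmb5 had 4.43, 4.60 and 4.61 in treated and 4.52, 4.56 and 4.49 in vehicle arrays (log2 fold change 0.03, SE 0.08, limma adjusted p = 0.878). Psmb6 had 2.82, 2.87 and 2.85 in treated and 2.76, 2.83 and 2.85 in vehicle arrays (log2 fold change 0.04, SE 0.07, limma adjusted p = 0.785). For Psmb7, treated arrays at 3.17, 3.28 and 3.28 lay just above vehicle arrays at 3.08, 3.08 and 3.07 (log2 fold change 0.17, SE 0.07, limma adjusted p = 0.245).

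To set each inducible subunit against the subunit it replaces, their difference in log2 signal was taken within each array and compared between the groups. That difference shows unequal change only, since the signals of 2 probes do not give relative abundance. Psmb8 minus Psmb5 was lower by 0.62 log2 units in treated arrays, Psmb9 minus Psmb6 by 0.65 and Psmb10 minus Psmb7 by 0.73 (differences, treated minus vehicle, of -0.62, -0.65 and -0.73). In each of the 3 pairs all 3 treated arrays lay below all 3 vehicle arrays. The exact two-sided permutation test gave p = 0.1 for each pair (adjusted over the 3 pairs, 0.1), the smallest p that 3 against 3 arrays allow.

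Of the 34 tested genes of the constitutive catalytic sites, the rest of the core and the regulatory particle, 27 had a log2 fold change above 0 and 7 below it, with a range of -0.08 to 0.34 and a median of 0.08. Groups did not overlap, with treated higher, for 14 of the 34, against 1683 of 12118 tested genes. With treated lower this held for 1 of the 34, against 16.8% of tested genes. None passed the adjusted threshold in limma. At an unadjusted p of under 0.05, 3 were higher, against 10.1% of tested genes, and 0 were lower. Those 3 were Psma7 (0.25, SE 0.08, limma adjusted p = 0.182) and Psma3 (0.25, SE 0.10, limma adjusted p = 0.224) of the core and Psmd12 (0.34, SE 0.09, limma adjusted p = 0.150) of the regulatory particle. Psmd5, a chaperone of regulatory particle assembly, had 0.14 (limma adjusted p = 0.298). Among 6 tested assembly factors and other activators, the assembly chaperone Psmg2 had -0.20 (limma adjusted p = 0.240) and Psme4, which caps proteasomes in an alternative way, had 0.31 (limma adjusted p = 0.268).

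**Figure D3:**
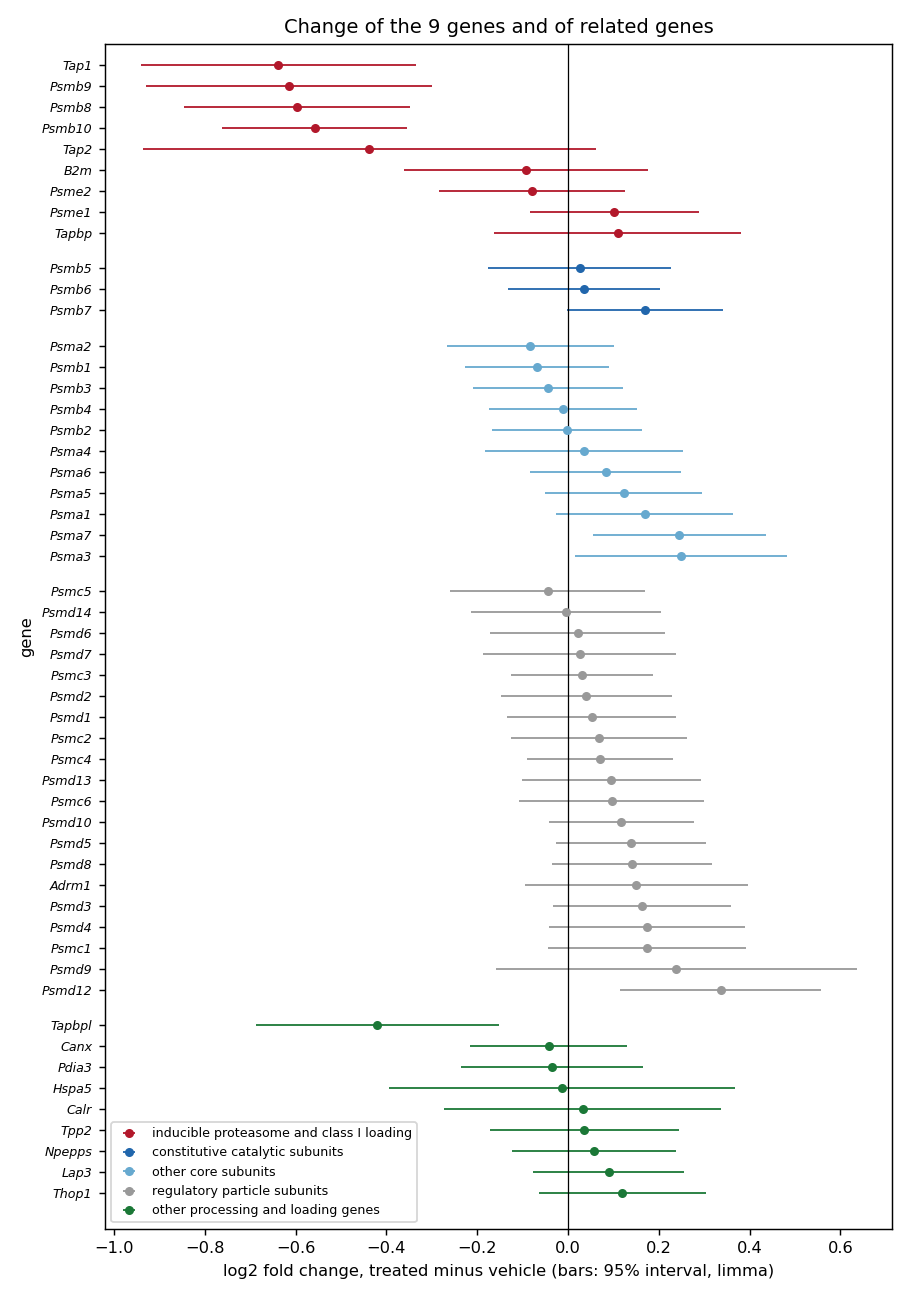
Log2 fold change, treated minus vehicle, with its 95% interval from limma (x axis) for the 9 genes and for related genes (y axis). Psmb8, Psmb9, Psmb10 and Tap1 lie between -0.64 and -0.56, whereas the 34 constitutive proteasome genes lie between -0.08 and 0.34.

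Other genes of peptide trimming and class I folding stayed close to their vehicle level, with 1 exception. Of 9 tested, including calreticulin (Calr), calnexin (Canx) and the disulfide isomerase Pdia3, 8 had log2 fold changes between -0.04 and 0.12. The exception was Tapbpl, the tapasin-related peptide editor, with -4.51, -4.62 and -4.41 in treated and -4.15, -4.22 and -3.92 in vehicle arrays. Its log2 fold change was -0.42 (SE 0.11, limma adjusted p = 0.144). The largest of the others was the oligopeptidase Thop1 (0.12, limma adjusted p = 0.398). Among 3 tested class I-like genes, the neonatal Fc receptor Fcgrt had -0.31 (SE 0.20, limma adjusted p = 0.407), with treated 2 at 2.41 below the other 5 arrays (3.03 to 3.22). Cd1d1, which presents lipids, had 0.05 (limma adjusted p = 0.818).

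The class I heavy chains are encoded by RT1 genes, which are closely alike, so that a probe can bind transcripts of several of them and its gene name is uncertain. Of 56 RT1 class I probes, 42 were tested, for 26 symbols: RT1-A1, RT1-A2, RT1-CE1, RT1-CE10, RT1-CE11, RT1-CE12, RT1-CE13, RT1-CE15, RT1-CE16, RT1-CE2, RT1-CE3, RT1-CE4, RT1-CE5, RT1-CE6, RT1-CE7, RT1-M1-5, RT1-M3-1, RT1-M5, RT1-M6-1, RT1-M6-2, RT1-N2, RT1-N3, RT1-S2, RT1-S3, RT1-T18 and RT1-T24-4. None passed in limma, and 2 were lower at an unadjusted p of under 0.05 (RT1-M5 at -0.55, limma adjusted p = 0.14, and 1 of the RT1-CE5 probes at -0.53, limma adjusted p = 0.175), against 12.2% of tested probes. The median log2 fold change of the 42 probes was -0.11.

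Many of these probes divided the animals in a way that did not follow the treatment. RT1-CE15 had -1.65, -3.82 and -3.72 in treated 1, 2 and 3 and -3.53, -1.66 and -1.43 in vehicle 1, 2 and 3. RT1-CE16 had 3.77, 2.43 and 2.62 in treated 1, 2 and 3 and 2.54, 3.86 and 3.95 in vehicle 1, 2 and 3. Treated 1, vehicle 2 and vehicle 3 were thus high, and treated 2, treated 3 and vehicle 1 low. Both Tap2 probes placed the same 3 arrays highest.

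Probes under 1 symbol could run in opposite directions. One RT1-A2 probe had 3.54, 2.86 and 3.06 in treated and 3.03, 3.62 and 3.73 in vehicle arrays, and the other had 3.13, 3.77 and 4.11 in treated and 3.89, 3.28 and 3.33 in vehicle arrays. Treated 1, vehicle 2 and vehicle 3 were the 3 highest arrays on 13 of the 42 probes and the 3 lowest on 15 others. As a description, the same 3 arrays were highest or lowest on 66.7% of these probes and on 14.9% of all tested probes. This split was read from the same values, so its share among them is no test. Of the 17 probes of the 9 genes 29.4% had it too. The 3 arrays were highest on the 2 Tap2 probes and lowest on 3 probes of B2m and Psme1. Slide 1 held treated 1 and all vehicle arrays, and slide 2 held treated 2 and treated 3. The animals' RT1 haplotypes were not measured, and their part in the Tap2 values was not tested.

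**Figure D4:**
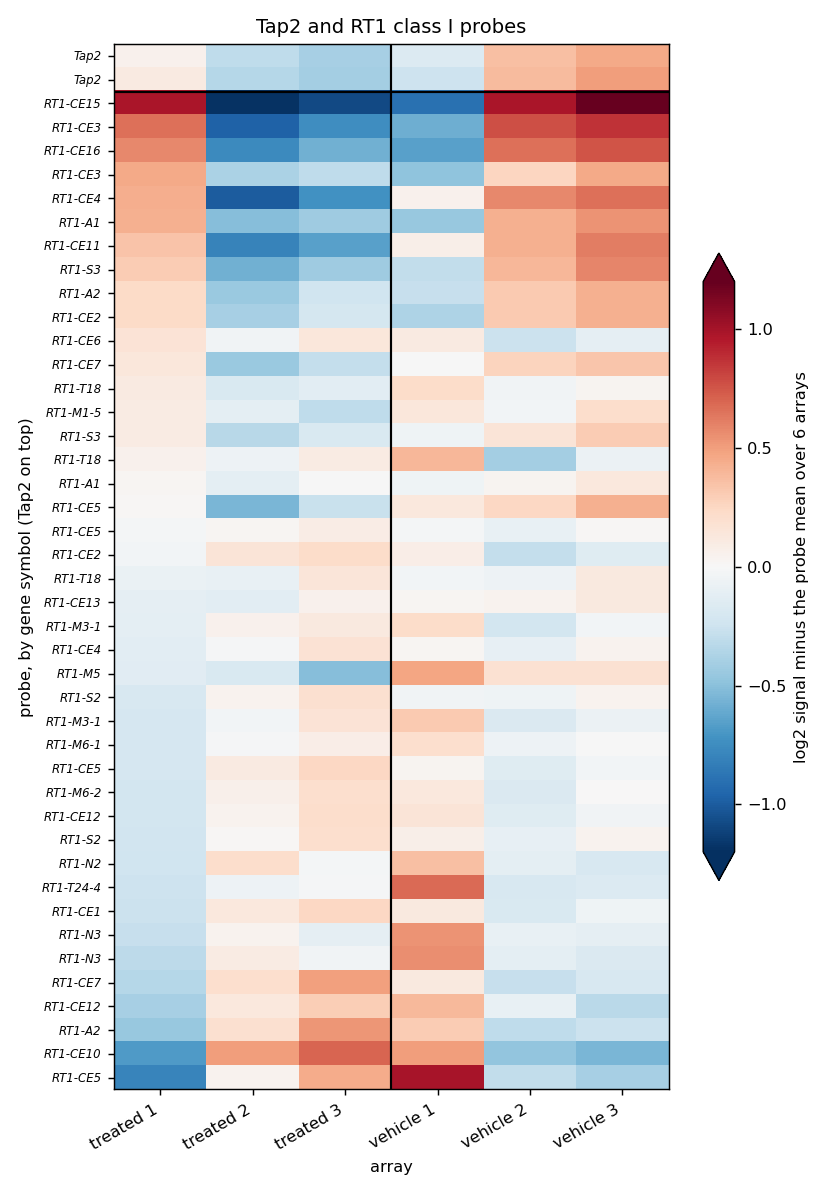
Log2 signal of the 2 Tap2 probes (top) and the 42 tested RT1 class I probes minus each probe's mean over 6 arrays (colour), with a column per array, treated at left and vehicle at right. On the Tap2 probes and on many RT1 probes, treated 1, vehicle 2 and vehicle 3 share a colour opposite to that of treated 2, treated 3 and vehicle 1.

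Regulators of these genes differed in both directions. Of 23 tested, 11 had a log2 fold change below 0 and 12 above it, where 52.5% of all tested genes were below 0. The range was -0.95 to 0.55. At an unadjusted p of under 0.05, 3 were lower and 2 higher, where 11.3% of all tested genes were lower and 10.1% higher. None passed in limma, and the median log2 fold change was 0.01. Irf9, a transcription factor of the type I interferon response, had -1.78, -1.80 and -1.72 in treated and -1.25, -1.42 and -1.33 in vehicle arrays (log2 fold change -0.44, SE 0.08, limma adjusted p = 0.096). Every treated array lay below every vehicle array. Irf1, which acts on the elements shown above, had a log2 fold change of -0.43 (limma adjusted p = 0.243) with overlapping groups. Ciita, the master regulator of class II genes, had -0.95 (SE 0.24, limma adjusted p = 0.141). The receptor chains Ifnar1 (0.29, limma adjusted p = 0.170) and Ifngr1 (0.20, limma adjusted p = 0.231) were on the higher side. Interferon gamma itself (Ifng) did not pass the filter on dim probes and was not tested. Among 19 tested interferon-induced genes all 19 were below 0, against 52.5% of all tested genes, with a median of -0.65. Oasl, among the 19, was well above background on 1 treated array only, so it was tested through the vehicle group. Of them 11 were lower at an unadjusted p of under 0.05, against 11.3% of all tested genes. Gbp2, an interferon-induced GTPase, had -0.97 (limma adjusted p = 0.064) and the chemokine Cxcl10 -1.29 (limma adjusted p = 0.064).

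The genes whose pattern was most like that of the 9 were sought by Pearson's r over the 6 arrays with the mean centred profile of the 9, among 5529 genes that were well above background on all arrays and varied at least as much. They were Gpr157 (r = 0.994), Ccdc175 (0.991), Dcakd (0.986), Gbp2 (0.985), Dzip1l (0.982) and Igfbp2 (0.980). All 6 were lower in treated arrays, with log2 fold changes of -0.97 to -0.36. The 6 points share their arrays and the difference between groups, and 158 of the candidates had an r above 0.9.

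Leukocytes express the immunoproteasome strongly, so markers of such cells are given beside these values. Of 13 tested macrophage markers 10 were below 0 and 5 of them had an unadjusted p of under 0.05 (Fcgr3a, Msr1, Adgre1, Aif1 and Ptprc). Of all tested genes 52.5% were below 0 and 11.3% were lower at that p. In the same list 3 were above 0: Mrc1 (0.75, SE 0.20, limma adjusted p = 0.148), Cd14 (0.50, SE 0.21, limma adjusted p = 0.256) and C1qb (0.04, limma adjusted p = 0.909). Msr1 was well above background on 2 treated arrays only. The summed level of the macrophage markers, in units of the array's 75th percentile, was 77.4 to 117 in treated and 102 to 121 in vehicle arrays. Lyz2, the brightest of them (mean log2 level 6.15), weighs most in it. All 8 tested T cell markers were below 0, with sums of 1.31 to 2.09 in treated and 1.70 to 2.03 in vehicle arrays. Cd2, among the 8, was well above background on 1 treated array only, so it was tested through the vehicle group. All 5 tested NK cell markers were below 0, with sums of 1.47 to 2.18 in treated and 2.28 to 2.37 in vehicle arrays. B cell sums were 2.24 to 2.53 in treated and 2.90 to 3.39 in vehicle arrays over 3 tested markers. Dendritic cell sums overlapped, at 27.3 to 43.7 in treated and 35.9 to 40.9 in vehicle arrays, and no array had Xcr1 well above background. These sums follow Cd74, the brightest of the list (mean log2 level 5.19), and say little of its other markers. Endothelial sums were 30.3 to 34.5 in treated and 32.2 to 34.9 in vehicle arrays over 7 tested markers.

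Set beside each other array by array, as deviations from the vehicle mean, Psmb8, Psmb9, Psmb10 and Tap1, picked here for their differences, averaged -0.51, -0.74 and -0.55 in treated 1, 2 and 3. The macrophage medians were -0.09, -0.54 and -0.50 in treated 1, 2 and 3. The T cell medians were 0.02, -0.48 and -0.53, and the NK cell medians -0.09, -0.52 and -0.70. The B cell medians were -0.21, -0.16 and -0.16, and the dendritic cell medians 0.00, -0.41 and -0.07. Medians were thus nearer to 0 in treated 1 than in treated 2 for every list except B cells. In vehicle 1, 2 and 3 the macrophage medians were 0.16, -0.22 and 0.07 and the T cell medians 0.17, -0.17 and 0.003. The NK cell medians there were 0.01, -0.04 and -0.01, the B cell medians 0.08, -0.14 and -0.12, and the dendritic cell medians 0.16, 0.03 and -0.10. The macrophage, T cell and dendritic cell medians of treated 1 lay within their vehicle range. The B cell and NK cell sums lay below every vehicle array in all 3 treated arrays. Of the 13 tested macrophage markers 4 did so too, against 16.8% of tested genes. In the same list 1 marker, Mrc1, lay above every vehicle array in all treated arrays. Msr1, among the 4, was well above background on 2 of 3 treated arrays, so it was tested through the vehicle group. The part of leukocyte number in the values of the 9 genes was not tested.

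**Figure D5:**
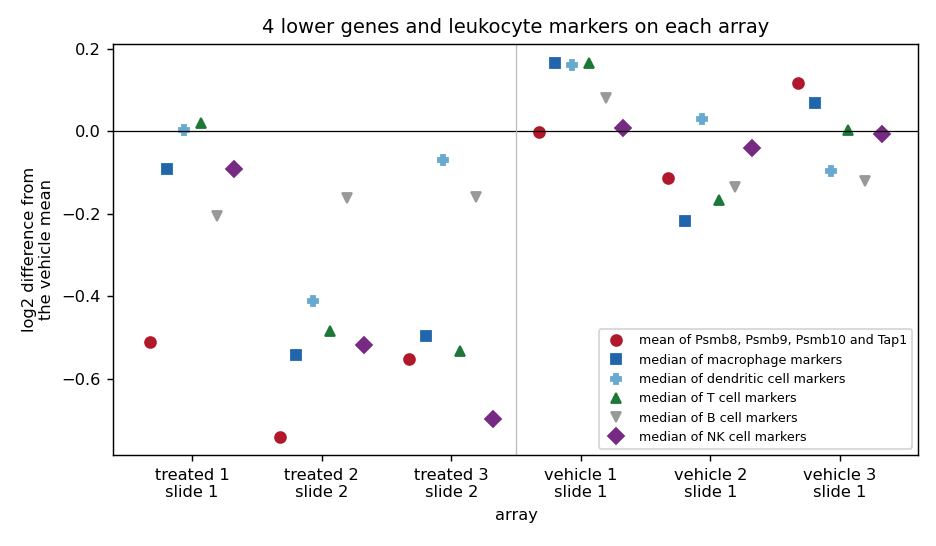
Log2 difference from the vehicle mean (y axis) on each array (x axis, with its slide) for the mean of Psmb8, Psmb9, Psmb10 and Tap1 and for the median of 5 leukocyte marker lists. In treated 1 the 4 genes lie at -0.51 and the marker medians between -0.21 and 0.02. In treated 2 the 4 genes lie at -0.74 and the medians between -0.54 and -0.16. In treated 3 they lie at -0.55 and the medians between -0.70 and -0.07.

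Slide and group were partly confounded, since slide 1 and its scan held treated 1 and vehicle 1 to 3, and slide 2 and its scan held treated 2 and 3. Within slide 1, where the comparison is treated 1 against 3 vehicle arrays, the log2 fold changes were -0.56 for Psmb8, -0.43 for Psmb9, -0.47 for Psmb10 and -0.58 for Tap1. They were -0.16 for Tap2, -0.21 for Psme2, 0.01 for Psme1, 0.07 for Tapbp and -0.26 for B2m, and none passed in limma (adjusted p from 0.198 to 0.965). Tap2, Psme2, Psme1 and B2m each differed by over 1.5 times from their values over both slides (-0.44, -0.08, 0.10 and -0.09). Without treated 1, the comparison of slide 2 with slide 1, 3 of the 9 passed: Psmb10 (-0.60, limma adjusted p = 0.021), Psmb9 (-0.70, limma adjusted p = 0.034) and Psmb8 (-0.62, limma adjusted p = 0.039). In that setting 2838 probes were called lower and 1469 higher in all, and slide and group cannot be told apart.

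Across the whole series 1 probe was called higher and 2 lower at an adjusted p of under 0.05 in limma. The split was 12 higher and 5 lower with median centring and 96 higher and 40 lower with normexp background correction. Array pairs correlated at 0.982 to 0.994 over tested probes, 66.1% to 68.2% of non-control probes were well above background and none was saturated. Markers of the proximal tubule (8 of 8 tested), distal nephron (6 of 6) and podocytes (5 of 5) were present. Liver transcripts were present as well, with summed levels of 6.13 to 36.4 in treated and 2.88 to 24.0 in vehicle arrays. The median deviation of the liver list was -0.43, 0.24 and 2.30 in treated 1, 2 and 3 and 1.21, 0.38 and -1.68 in vehicle 1, 2 and 3, an order that Psmb8, Psmb9, Psmb10 and Tap1 did not share.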

How the data were processed

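Cy3-labelled cRNA of each animal went on a separate Agilent array, per the labels' protocols. The authors' deposited scanner files hold linear intensity values per spot from Agilent Feature Extraction 10.7.1.1, per the file headers (10.7 in the submitters' processing notes). The authors' series table has scaled intensity values that matched the processed signal divided by each array's 75th percentile (medians 0.105 to 0.110).

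Values analysed were log2 processed signal minus the 75th percentile over 61537 non-control probes (log2 scale, computed from the deposited intensity). Probes with outlier flags (11) were left out, and a probe was tested when well above background on all 3 arrays of a group (40643 probes). Accessions were matched without versions to RefSeq (GRCr8): 28206 probes had 1 symbol and 33331 none. Where a gene had several probes, the brightest tested one stands for it. The test was limma 3.58.1 under R 4.3.3 (lmFit, eBayes, two-sided, Benjamini-Hochberg over all tested probes, threshold 0.05). On simulated data with 200 changed probes among 40643, the test called 70% of those changed by 1 on the log2 scale. Changes below 1, as in the 9 genes, were not simulated, and the simulated arrays had no slide effect. No member list was tested as a set.

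Members and lists were chosen with earlier results of these data known. Named genes are the 9 members, the 2 with the lowest unadjusted p of each other pathway list, further genes whose role bears on the members, all tested RT1 class I genes, and the 6 with the most similar pattern. The further genes were chosen after their values were seen. One gene that this rule names is not reported here. Replicate numbers were set against deviations from the group means, with correlations of -0.21, 0.01 and -0.16 between same-numbered arrays, so they do not pair the animals. The number of arrays limits the precision.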

Additional observations from a re-analysis of the deposited data

How the results depend on the processing

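In every alternative run, each of the 9 genes kept the direction of its difference. The log2 fold changes ranged from -0.65 to -0.52 for Psmb8, -0.70 to -0.43 for Psmb9, -0.60 to -0.47 for Psmb10 and -0.75 to -0.46 for Tap1 over 17 alternatives each, with adjusted p-values of 0.021 to 0.337 over the 4 genes. Members past the threshold numbered 0 in limma with the settings of the report, 1 with an intensity trend and robust variance (Psmb10, adjusted p = 0.043), and 0 to 3 over the fits that leave out 1 array, reaching 3 without treated 1 only. The median over the 9 genes was -0.26 with slide as a fixed block, -0.32 with slide as a random block, and -0.57 to -0.32 with 1 array left out. Counts over all probes were less stable. Probes called higher numbered 96 with normexp, 12 with median centring, 0 without a filter, 0 with probes above background on all arrays, 0 with slide as a fixed block, 109 with the trend, and 0 to 1469 with 1 array left out. Probes called lower numbered 40 with normexp, 5 with median centring, 1 without a filter, 0 with probes above background on all arrays, 1 with slide as a fixed block, 47 with the trend, and 0 to 2838 with 1 array left out. With the replicate block, 0 probes were called higher and 0 lower, although the numbers do not pair the animals, and the 9 genes kept their values with no change of call. The highest of these counts came without treated 1. The cause of these shifts was not tested. The differences between paired subunits were recomputed with normexp and with each array left out, and kept their direction there. For normexp, median rather than mean spot signals were taken. Matching probes by a gene name column was not run, since the scanner files used here hold accessions only. With 3 arrays a group, the 95% intervals of the single genes span 0.37 to 1.00 on the log2 scale.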
